A study of Rattus norvegicus with 6 samples.

Results

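The 9 genes of glycolysis and the hypoxia response were followed in rBMSCs, the mesenchymal stem cells of rat bone marrow, after 4 days of culture in 3D Nichoids or on 2D Nichoids. They are 9 of the 32883 Ensembl gene identifiers in the count tables and were taken by name and identifier from a list, not by a threshold on their values: Hif1a (ENSRNOG00000008292), Slc2a1 (ENSRNOG00000007284), Hk2 (ENSRNOG00000006116), Pfkfb3 (ENSRNOG00000018911), Tpi1 (ENSRNOG00000015290), Pgk1 (ENSRNOG00000058249), Eno1 (ENSRNOG00000017895), Pkm (ENSRNOG00000011329) and Ldha (ENSRNOG00000013009). The list was drawn up with earlier results of these data known, so the choice was not blind to the values. The cells were primary, came from Lewis rats and no transgene or added agent is named for them, and both groups shared the serum-containing medium and the wells to which cells do not attach outside the substrate. A 3D Nichoid is a polymerized scaffold of stacked, interconnected grids that cells enter, and a 2D Nichoid is a single layer of the same grid, which served as the flat control. Each group had 3 libraries, replicates A, B and C. The labels do not say whether these came from separate animals, so the spread between these libraries, on which p values draw, may be technical.

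Glycolysis turns glucose into pyruvate in the cytoplasm and yields ATP without oxygen. HIF-1 alpha, the protein of Hif1a, is the oxygen-sensitive subunit of the transcription factor HIF-1: with oxygen present it is hydroxylated and degraded, and without it the protein accumulates and switches on genes of glucose uptake, glycolysis and lactate formation. Control at that step acts on the protein, so a transcript level does not give the activity of the factor. Mesenchymal stem cells of the bone marrow live at low oxygen and are known for a strongly glycolytic metabolism.

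Total counts ranged from 38353363 to 41860684 over the 6 libraries. Levels are given in CPM, that is, reads per 1000000 counted reads, after scaling by TMM, an edgeR method that corrects each total so that most genes do not differ between libraries. Differences were tested by the quasi-likelihood method of edgeR over all 13523 genes that passed a filter on low counts. Its variance estimates also draw on the other genes, so its p values do not rest on the spread of the single gene alone. An exact permutation test of 3 libraries against 3 gave p = 0.1 for each of the 9 genes on the TMM scale, the smallest it allows. A gene is called here when its adjusted p value by edgeR does not exceed 0.05. A DEG, in the cutoffs of the study, also needs an absolute log2(FC) above 1. Replicate C of the 2D Nichoids stood apart on the second principal component (35.96, against -22.9 and -22.2 in replicates A and B of that group), and without it each of the 9 genes kept its call. A level in these bulk samples is a share of the counted reads, and RNA per cell was not measured. A lower level could come from less RNA of the gene per cell or from fewer cells that express it. It could also come from more RNA of other genes, and these cannot be told apart.

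All 9 genes passed the filter, and all 9 differed between 3D and 2D Nichoids. Hif1a, Slc2a1, Hk2, Pfkfb3, Tpi1, Eno1, Pkm and Ldha fell in 3D Nichoids, and Pgk1 alone rose, a call that was lost with total counts as the scale. Over all tested genes 37.8% were called, 18.8% lower and 18.9% higher in 3D Nichoids. Calls are more frequent among well-counted genes, to which all 9 belong: of the 5816 genes whose mean normalized count reached 1000, 55.6% were called, 28.3% lower and 27.3% higher. The share called rose further with counts. It was 74.7% for counts from 5000 to 15000, the class of Hif1a, and 86.2% above that, the class of Pgk1, Eno1, Pkm and Ldha. In all 9 genes the levels of the groups did not overlap, as in 46.9% of all tested genes and 62.4% of the well-counted ones. The median log2(FC) of the 9 genes was -0.23, against -0.01 over all tested genes and -0.02 over the well-counted ones. Because the 9 genes were chosen with earlier results of these data known, these shares and medians are a description only. None of the 9 was a DEG with edgeR, nor with DESeq2 or limma-voom, and none passed the fold cutoff with an unadjusted p under 0.05. DEGs made up 3.42% of all tested genes and 1.03% of the well-counted ones.

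**Figure D1:**
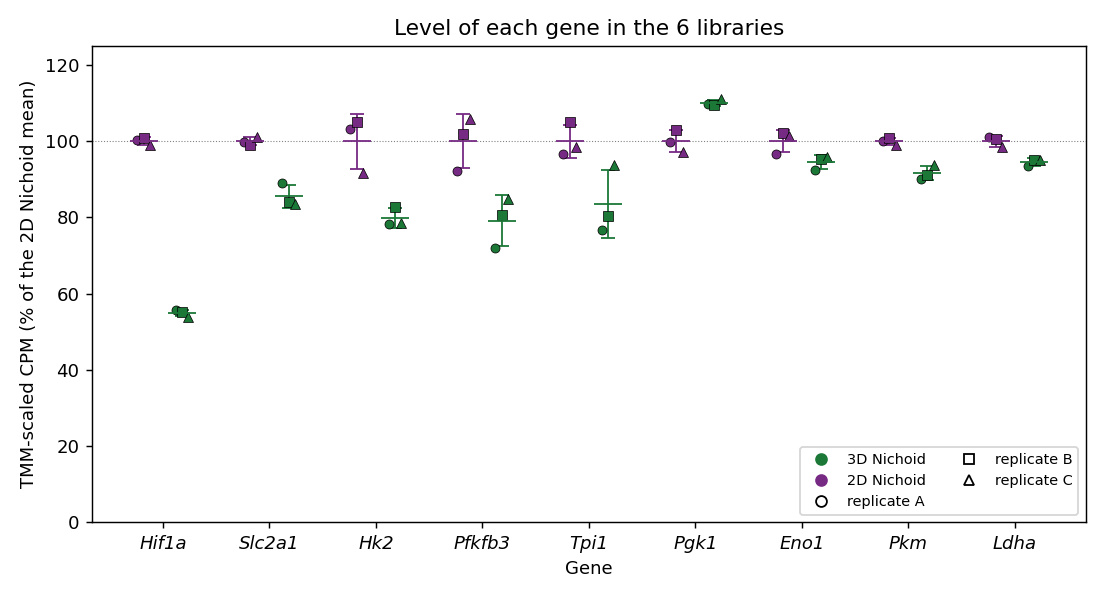
TMM-scaled CPM of each gene in the 6 libraries, as a percentage of the mean of the 2D Nichoid libraries (points, with replicate letters as symbols), with the group mean (dash) and SD (bars, n = 3). Hif1a lies far below its 2D Nichoid level in all 3 libraries from 3D Nichoids, Pgk1 lies above it, and the other 7 genes lie below it by smaller margins, from Eno1 (fell by 5.41%) to Pfkfb3 (fell by 20.9%). With total counts as the scale the rise of Pgk1 was not called.

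Hif1a showed the largest difference of the 9. Its reads numbered 6898, 6361 and 6436 in the 3D Nichoid replicates (A to C), against 12246, 12323 and 12365 in their 2D counterparts. On the CPM scale the level was 169 ± 2.68 in 3D Nichoids and 308 ± 3.08 in 2D Nichoids (SD, n = 3), so that it fell by 45.1%. All 3 libraries of the 3D Nichoids lay far below the 2D Nichoid libraries, and libraries of one group differed by little. The coefficient of variation was 1.59% and 1.0% in 3D and 2D Nichoids, where the counting of independent reads alone gives 1.23% and 0.90%. The log2(FC) was -0.87 ± 0.03 (SE), with a 95% interval from -0.92 to -0.81 and an adjusted p value of 3.80e-26 by edgeR, so the cutoff on p was met and the cutoff on the fold was missed. By log2(FC) it ranked 42nd from the lowest among the 5816 well-counted genes. Leaving out single libraries kept the value between -0.87 and -0.85, and with total counts in place of TMM it was -0.97 (95% interval from -1.03 to -0.91).

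Glucose uptake and the first committed steps come next in the pathway. Slc2a1 encodes GLUT1, the transporter through which most cells take up glucose. Replicates A to C held 3524, 3091 and 3183 of its reads in 3D and 3889, 3862 and 4036 in 2D Nichoids. Its level was 84.0 ± 2.995 CPM in 3D and 98.2 ± 1.06 CPM in 2D Nichoids (SD, n = 3), and fell by 14.5% (log2(FC) = -0.23 ± 0.05 SE, adjusted p value = 8.93e-05 by edgeR). The highest 3D Nichoid library, replicate A, still lay below every 2D Nichoid library.

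Hk2 encodes hexokinase 2, which phosphorylates glucose and so traps it in the cell. Its reads, again for A to C, were 2909, 2869 and 2815 in 3D against 3788, 3852 and 3442 in 2D Nichoids. Replicate C of the 2D Nichoids was the lowest of its group at 84.7 CPM, against 95.5 and 97.0 CPM, but above all 3 libraries from 3D Nichoids (72.2 to 76.6 CPM). The level fell by 20.1%, with log2(FC) = -0.32 ± 0.05 SE and an adjusted p value of 1.45e-06 by edgeR, and without that replicate the log2(FC) was -0.38.

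Pfkfb3 encodes the enzyme that makes fructose 2,6-bisphosphate, the main activator of phosphofructokinase. It was among the 2 least counted of the 9 genes, with 980, 1024 and 1114 reads in the 3D replicates and 1239, 1370 and 1456 in the 2D replicates. The mean level was 26.8 ± 2.25 CPM in 3D and 33.9 ± 2.38 CPM in 2D Nichoids (SD, n = 3), and it fell by 20.9%. The log2(FC) was -0.34 ± 0.08 (SE), at an adjusted p value of 0.000707 in edgeR. Its spread between replicates, 8.41% and 7.02% of the mean, was wider than the 3.10% and 2.72% that read counting alone gives. The highest 3D Nichoid library (28.7 CPM) and the lowest 2D Nichoid library (31.2 CPM) were close but did not cross.

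Tpi1 and Pgk1 follow in the pathway and moved in opposite directions. Tpi1 encodes triosephosphate isomerase, which interconverts the pair of three-carbon sugars. Its counts ran to 994, 970 and 1169 in 3D and 1235, 1341 and 1287 in 2D Nichoids (A to C), and replicate C of the 3D Nichoids (30.2 CPM) came close to replicate A of the 2D Nichoids (31.1 CPM). The level fell by 16.4% (log2(FC) = -0.26 ± 0.08 SE, adjusted p value = 0.00983 by edgeR). This call depended on single libraries: the adjusted p value was 0.0896 without replicate A of the 3D Nichoids (log2(FC) -0.20), 0.0625 without replicate B of the 3D Nichoids (-0.23) and 0.0602 without replicate B of the 2D Nichoids (-0.22).

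Pgk1 encodes phosphoglycerate kinase 1, which carries out the first ATP-forming step. The 3D replicates A to C held 26494, 24607 and 25789 of its reads and the 2D replicates 23753, 24508 and 23670. After scaling, the 3D Nichoid libraries lay between 657 and 665 CPM and the 2D Nichoid libraries between 583 and 617 CPM, so that the level rose by 10.05%. The log2(FC) was 0.14 ± 0.02 (SE), at an adjusted p value of 1.61e-06 in edgeR. This was the 1 call of the 9 that depended on the scaling. With total counts only, the groups overlapped, the log2(FC) was 0.04 and the adjusted p value 0.186, and 12.1% of all tested genes were called higher and 30.8% lower. Leaving out the composition factor shifted the median over all tested genes from -0.01 to -0.11 in log2(FC), so that relative to all genes Pgk1 lay above the median in both cases.

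The last steps of the pathway showed small falls. Their size depended on the scaling, as did that of the differences of the other genes. With total counts only, Eno1 fell by 11.9%, Pkm fell by 14.7% and Ldha fell by 11.9%, all more than on the TMM scale given next, and all 3 kept their calls. Eno1 encodes enolase 1, which forms phosphoenolpyruvate. Its read counts of 18478, 17713 and 18446 in the 3D replicates A to C and 19021, 20091 and 20399 in the 2D replicates came to 458.7 to 475.8 CPM against 479.4 to 506.1 CPM. It fell by 5.41% (log2(FC) = -0.08 ± 0.02 SE, adjusted p value = 0.00655 by edgeR) with a narrow gap between the groups, and the adjusted p value was 0.0689 without replicate A of the 3D Nichoids (log2(FC) -0.06) and 0.0642 without replicate B of the 2D Nichoids (log2(FC) -0.06).

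Pkm encodes the muscle-type pyruvate kinases, which form pyruvate and the second ATP. The counts are per gene and do not separate its splice forms PKM1 and PKM2. With 26950, 25305 and 26935 reads against 29476, 29709 and 29840 (3D and 2D, A to C), the level fell by 8.39% (log2(FC) = -0.13 ± 0.02 SE, adjusted p value = 2.61e-06 by edgeR). The 3D Nichoid libraries lay from 669 to 695 CPM, all below the range of 735 to 748 CPM in 2D Nichoids.

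Ldha encodes lactate dehydrogenase A, which reduces pyruvate to lactate. Replicates A to C had 22395, 21220 and 21924 of its reads in 3D and 23840, 23762 and 23778 in 2D Nichoids. The level was 563 ± 5.80 CPM in 3D and 595 ± 8.34 CPM in 2D Nichoids (SD, n = 3), and fell by 5.44% (log2(FC) = -0.08 ± 0.02 SE, adjusted p value = 0.00230 by edgeR). The call held with each library left out in turn, with adjusted p values up to 0.0223.

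**Figure D2:**
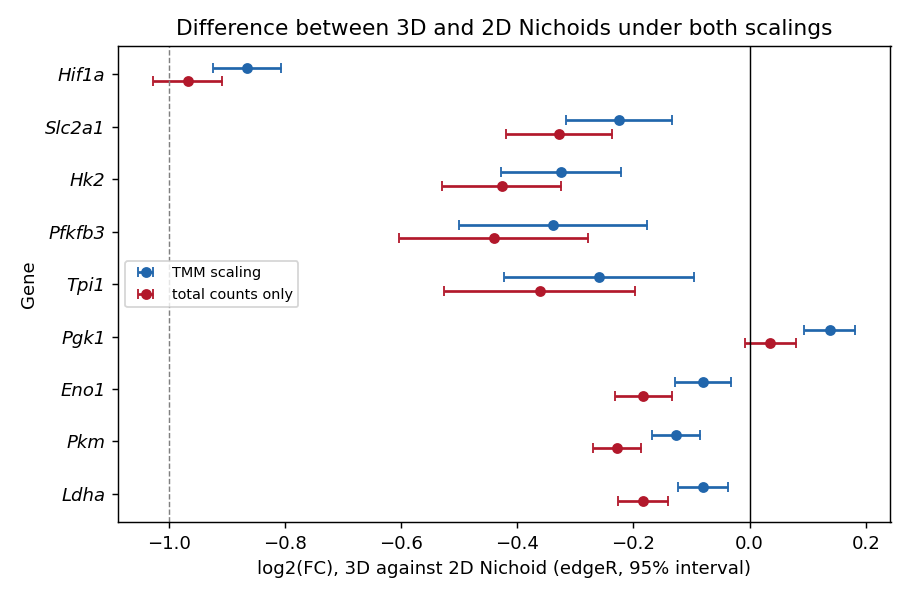
log2(FC) of each gene between 3D and 2D Nichoids from edgeR with its 95% interval (points and bars), under TMM scaling (blue) and with total counts only (red), with the study's cutoff of -1 as a dashed line. Every estimate lies lower with total counts, and the interval of Pgk1 then includes 0. The estimate of Hif1a (-0.87 and -0.97) stays short of -1, but its interval with total counts, from -1.03 to -0.91, includes -1.

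The size of the differences was also set beside that of other genes with similar counts, in classes chosen after the values were seen. Slc2a1, Hk2, Pfkfb3 and Tpi1 belong to the 4466 genes with a mean normalized count from 1000 to 5000, whose median log2(FC) was -0.03. Hif1a belongs to the 996 genes from 5000 to 15000, with a median of 0.04. Pgk1, Eno1, Pkm and Ldha belong to the 354 genes above 15000, with a median of 0.15, of which 21.2% were called lower. The log2(FC) of Pgk1, 0.14, was therefore close to the median of its class, while those of Eno1, Pkm and Ldha lay below it. In order of rising counts, 48.9%, 74.7% and 86.2% of the genes in these classes were called in either direction, so a call alone was common there.

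**Figure D3:**
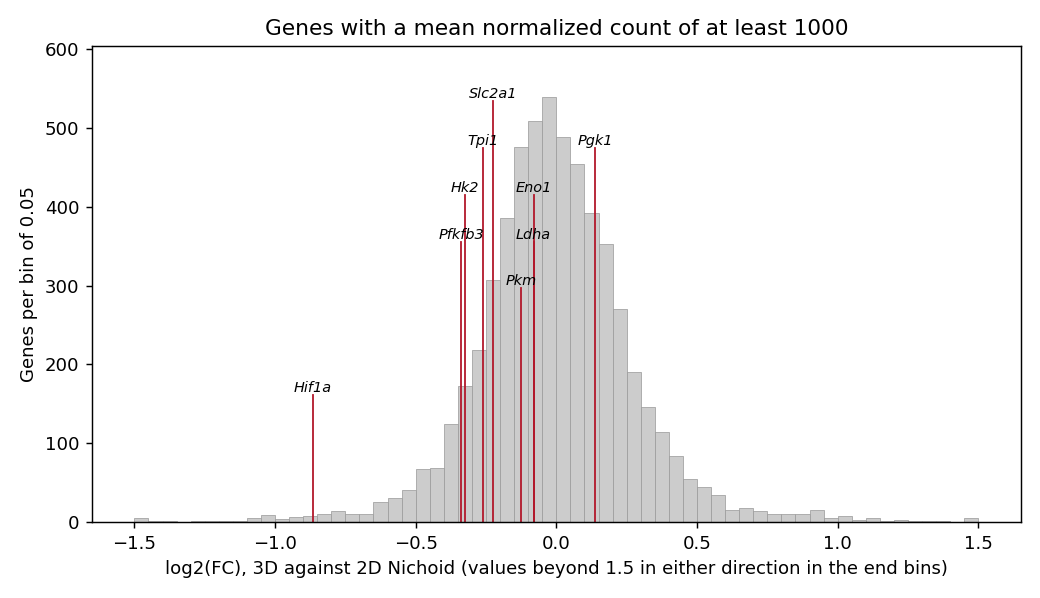
Distribution of log2(FC) between 3D and 2D Nichoids over the 5816 genes whose mean normalized count reached 1000 (grey bars, genes per bin), with the 9 genes as red lines whose heights only keep the names apart. Hif1a (-0.87) lies in the lower tail, Hk2 (-0.32), Pfkfb3 (-0.34), Tpi1 (-0.26) and Slc2a1 (-0.23) lie on the lower shoulder, and Eno1, Ldha, Pkm and Pgk1 lie near the centre.

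Ratios of counts within a library do not depend on how libraries are scaled. Of the 36 pairs of the 9 genes, 25 had ratios that did not overlap between the groups (two-sided exact permutation test, p = 0.1 for each, the smallest p that 3 libraries against 3 allow, so no pair can pass 0.05). The pairs reuse the same 9 genes, and the share over pairs of other genes was not worked out. Among single well-counted genes 62.4% did not overlap in TMM-scaled levels. That is another measure and gives no background for ratios of pairs. Some of the 25 differences were small, such as 0.05 for Eno1 to Pkm and -0.05 for Pkm to Ldha on the log2 scale. The ratios of Hif1a to the other 8 genes were all lower in every 3D Nichoid library than in any 2D Nichoid library. The group means were lower by 0.53 (Pfkfb3) to 1.0 (Pgk1) on the log2 scale. These 8 ratios share the Hif1a count and restate its fall given above, so they are not separate results. For each Pgk1 read there were 0.260, 0.259 and 0.250 Hif1a reads in the 3D replicates A to C, and 0.516, 0.503 and 0.522 in the 2D replicates.

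**Figure D4:**
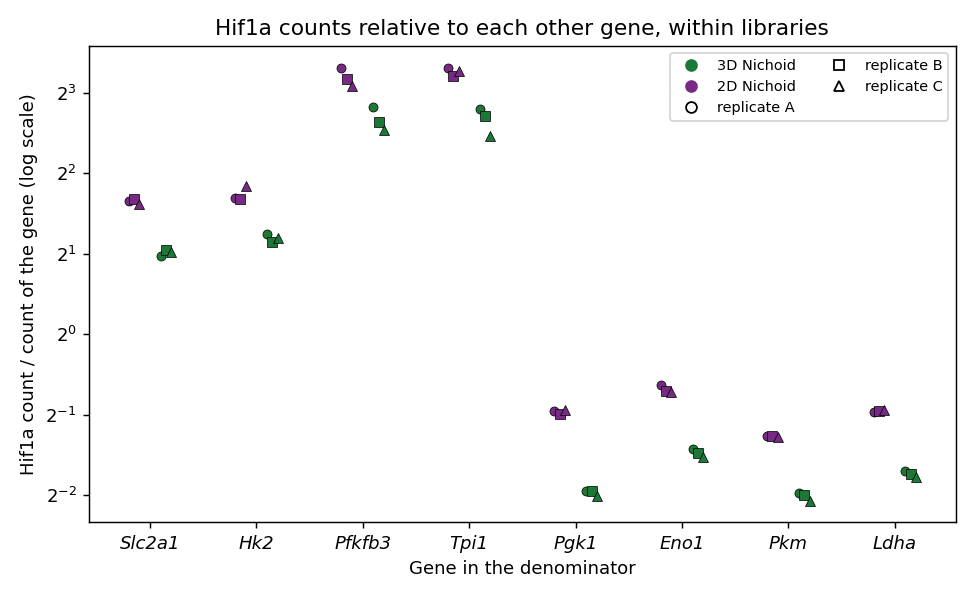
Hif1a reads divided by the reads of each other gene within the same library, on a log scale (points, coloured by group, with replicate letters as symbols). The level of a ratio also depends on transcript length, so only the step between groups within a gene is compared. In all 8 genes the 3D Nichoid libraries lie below the 2D Nichoid libraries. The 8 ratios share the Hif1a count and restate its fall.

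The genes of glucose uptake and entry (Slc2a1, Hk2 and Pfkfb3) were compared in the same way with the 5 later enzymes Tpi1, Pgk1, Eno1, Pkm and Ldha, a division by place in the pathway that was made after the values were seen. Of the 15 ratios of an entry gene to a later enzyme, 14 had a lower mean in 3D Nichoids, and in 11 the groups did not overlap. These ratios reuse the same genes and restate their log2(FC) values given above, so the counts describe those differences and test nothing further. The share over pairs of other genes was not worked out. The ratios to Tpi1 all overlapped (differences of 0.04 for Slc2a1, -0.06 for Hk2 and -0.08 for Pfkfb3 on the log2 scale, exact permutation p from 0.4 to 0.8). The other ratio that overlapped was Slc2a1 to Pkm, at 0.131, 0.122 and 0.118 in the 3D replicates against 0.132, 0.130 and 0.135 in the 2D replicates (exact permutation p = 0.2). Among the 3 entry genes themselves, the 3 ratios overlapped between the groups. Pgk1 was higher relative to Ldha in all 3 libraries from 3D Nichoids, with 1.18, 1.16 and 1.18 reads per Ldha read in the 3D replicates against 0.996, 1.03 and 0.995 in the 2D replicates, whereas the ratio of Eno1 to Ldha overlapped (0.825 to 0.841 and 0.798 to 0.858). The entry genes and Tpi1 also had the fewest reads, and the part of that in these differences was not tested.

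Gene copies could bear on the counts of some of these enzymes. RefSeq (assembly GRCr8, used for names only) lists 31 pseudogenes named after Eno1, 30 after Ldha, 19 after Pkm, 8 after Pgk1 and 3 after Tpi1, and 0 named after Hif1a, Slc2a1, Hk2 or Pfkfb3. How reads that align to several places were counted is not given in the sources used here. The counts of the 5 genes with such copies are therefore uncertain, and the part of such reads in their differences was not tested.

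The promoters of the 9 genes were searched for the core of the hypoxia response element, the short sequence to which HIF-1 binds. The genes were listed for glycolysis and the hypoxia response, and any link of the motif to the differences between the groups was not tested. The core is either ACGTG or GCGTG, and both were searched on both strands in windows from 250 bases before to 50 bases after an annotated transcript start, taken from RefSeq on build GRCr8, which is not the build of the counts. Windows were found for 8 genes (9 windows, of which 2 for Eno1), and Pgk1 had no entry. ACGTG was found in 5 of the 9 windows (of Hif1a, Slc2a1, Pfkfb3, Eno1 and Ldha), against 19.3% of all 33469 windows and 25.7% of those with at least 60% G and C. GCGTG was found in 4 (of Slc2a1, Ldha and both of Eno1), against 29.7% of all windows and 58.4% of the GC-rich ones. Either motif was in 6 of the 9 windows, against 41.6% of all and 68.3% of the GC-rich ones, to which 6 of the 9 belong. Windows of Hk2, Tpi1 and Pkm, which also fell, held neither. ACGTG overlaps its own reverse complement in CACGTG. A subset of windows with ACGTG is shown. That of Eno1 is left out, as are the windows without ACGTG, so those shown do not stand for all 9. The windows shown are those of the regulator, the transporter, the activator of the pathway and its last enzyme. They lie at chr6:98359648-98359947 (Hif1a), chr5:138002272-138002571 (Slc2a1), chr17:71944683-71944982 (Pfkfb3) and chr1:106507842-106508141 (Ldha), all on the plus strand of GRCr8, with the matched letters in capitals.
Hif1a: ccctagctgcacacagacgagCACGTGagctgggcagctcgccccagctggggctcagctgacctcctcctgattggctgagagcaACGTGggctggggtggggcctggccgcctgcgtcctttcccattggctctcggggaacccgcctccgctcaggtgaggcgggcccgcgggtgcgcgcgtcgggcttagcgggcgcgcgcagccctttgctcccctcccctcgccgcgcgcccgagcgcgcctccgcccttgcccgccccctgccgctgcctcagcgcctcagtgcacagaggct
Slc2a1: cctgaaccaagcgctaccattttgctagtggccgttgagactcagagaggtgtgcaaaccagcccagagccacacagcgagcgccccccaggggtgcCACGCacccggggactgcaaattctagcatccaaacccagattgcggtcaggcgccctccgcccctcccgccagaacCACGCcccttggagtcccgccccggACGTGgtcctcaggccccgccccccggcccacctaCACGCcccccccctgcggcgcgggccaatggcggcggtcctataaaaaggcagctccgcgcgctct
Pfkfb3: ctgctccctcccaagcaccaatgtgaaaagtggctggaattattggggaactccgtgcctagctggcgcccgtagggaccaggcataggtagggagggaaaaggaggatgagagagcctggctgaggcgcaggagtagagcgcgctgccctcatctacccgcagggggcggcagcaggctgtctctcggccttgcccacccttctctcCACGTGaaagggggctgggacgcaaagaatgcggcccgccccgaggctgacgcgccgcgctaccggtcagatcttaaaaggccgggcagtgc
Ldha: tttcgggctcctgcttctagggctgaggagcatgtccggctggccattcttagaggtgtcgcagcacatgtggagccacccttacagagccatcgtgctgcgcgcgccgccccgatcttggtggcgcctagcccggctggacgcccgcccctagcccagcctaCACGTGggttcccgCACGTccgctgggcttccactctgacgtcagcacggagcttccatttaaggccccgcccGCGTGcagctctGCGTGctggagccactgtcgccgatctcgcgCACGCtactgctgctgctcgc

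Counted from the start as base 1, with negative positions before it, the matches in Hif1a began at -229 and -164, and the single CACGTG in Pfkfb3 at -42. Slc2a1 had ACGTG at -51, with 3 reverse matches of GCGTG at -153, -76 and -16. Ldha held the most matches, with 5 separate runs that began from -87 to 30. In Eno1, not shown, the only ACGTG was a reverse match at 39, after the start. Eno1 also had reverse matches of GCGTG at -118 in that window and at -13 in its other window. A match in letters is a description and not a binding site.

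Other genes of the pathway, such as the remaining glycolytic enzymes, the partners and hydroxylases of HIF and other hypoxia targets, and the marker genes of mesenchymal, blood and endothelial cells, were not analysed here, because no table at hand pairs their symbols with the Ensembl identifiers of the counts.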

How the data were processed

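Total RNA of rBMSCs was taken at day 4 from cells in 3D Nichoids and on 2D Nichoids, made into 3 mRNA libraries per group and sequenced in single-end mode. The deposited values are raw counts of reads per Ensembl gene. The submitters' processing notes name FastQC 0.11.9, STAR 2.7.0a, HTSeq 0.12.4 and the build Rnor_6.0, while the methods of the paper name another HTSeq version and the build mRatBN7.2. Strand handling and reads that align to several places are not given in the sources used here, and overlapping genes could not be told apart.

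Groups and replicate letters came from the labels. The 9 genes, their symbols and the lists were chosen with earlier results of these data known. The test was that of edgeR 4.0.16, run in R 4.3.3 (filterByExpr, TMM, robust quasi-likelihood test, Benjamini-Hochberg adjustment over all 13523 tested genes, no covariates). The standard error is the absolute log2(FC) divided by the square root of F. DESeq2 1.42.0, which the study used, and limma 3.58.1 were alternatives, besides RLE factors, total counts, other filters, a replicate block, each library left out and a test of the log2(FC) against 1. The procedure was checked on simulated counts. All 9 genes were named by rule. Of the fixed gene lists, 0 symbols could be matched to identifiers, and those lists and the genes of most similar pattern were not analysed here. Counting errors treat reads as independent. Deviations from the group means were not shared by same-letter libraries across genes (correlations 0.03, -0.01 and 0.02), so letters were not taken to pair libraries. Python 3.11.15, pandas 2.3.3 and matplotlib 3.10.9 served for sequences and figures.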

Additional observations from a re-analysis of the deposited data

How the results depend on the processing

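Over 13 refits (7 other settings and 6 with a library left out), 111 of 117 log2(FC) values kept their direction and their side of the adjusted p value, 6 lost the call and 0 reversed. With total counts only, 0 of the 9 genes were called higher in 3D Nichoids, against 1 with TMM, because Pgk1 lost its call. The number of genes called lower was 8 in the 7 other settings and 6 to 8 with a library left out, where the calls lost were those of Tpi1 and Eno1. DESeq2, limma-voom, RLE factors, every gene with a count, at least 10 counts in every library and the replicate block gave 1 higher and 8 lower. Among the 9 genes 0 DEGs were found with edgeR in these settings and with a library left out, with DESeq2 or with limma-voom (0 also at an unadjusted p under 0.05 by edgeR), nor when the log2(FC) was tested against 1. With the replicate block Hif1a had a log2(FC) of -0.87, and the block changed no call. The share of total counts fell by 48.9% for Hif1a, fell by 11.9% for Eno1, fell by 11.9% for Ldha and fell by 14.7% for Pkm. With the TMM effective library size these shares fell by 45.1%, fell by 5.41%, fell by 5.44% and fell by 8.39%. On the same scales, in that order, Slc2a1 fell by 20.3% and fell by 14.5%, and Hk2 fell by 25.6% and fell by 20.1%. Pfkfb3 fell by 26.3% and fell by 20.9%, and Tpi1 fell by 22.2% and fell by 16.4%. Pgk1 rose by 2.52% and rose by 10.05%. Alternatives for the fixed gene lists were not run, because symbols could not be paired with identifiers. Counting error was largest for Pfkfb3 (3.10%) and Tpi1 (3.09%) in 3D Nichoids.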

Other observations

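Within each group, Pfkfb3 was lowest in replicate A and highest in replicate C. Its deviations from the group mean on the log2 scale were -0.14, 0.03 and 0.10 in the 3D replicates A to C, and -0.11, 0.03 and 0.08 in the 2D replicates. Eno1 was also lowest in replicate A of both groups, with deviations of -0.03 and -0.05. Both were singled out after their values were seen, and the letters did not pair libraries across all genes.

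Together the 9 genes took 0.262%, 0.266% and 0.268% of the total counts in the 3D replicates A to C, and 0.309%, 0.315% and 0.308% in the 2D replicates, so that the 3D Nichoid libraries lay below all 2D Nichoid libraries. On the TMM scale the shares were 0.272% to 0.278% and 0.296% to 0.304%.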
